A study of Mus musculus with 6 samples.

Results

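MicroRNA genes are annotated at their hairpins, and 966 of the 70494 accessible regions in the authors' deposited table (peaks) had such a gene as the nearest one. They were chosen by name alone, as the rows whose nearby gene begins with Mir and a digit or with Mirlet, and they covered 424 microRNA genes and microRNA host genes. Of these members 947 had an adjusted p in the table, and the 19 others were too weak to receive one.

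The study asked how loss of the homeodomain factor OTX2 changes chromatin in mouse definitive endoderm, the germ layer that forms gut, liver and pancreas. The cells came from 1 epiblast stem cell line, 7H OTX2-dTAG-EGFP (BL6/129 hybrid), in which OTX2 carries a degradation tag and EGFP in treated and control cells alike. Differentiation took 16 h with Activin A at 40 ng/ml and CHIR at 3 uM, and a further 24 h with Activin A at 100 ng/ml and LDN at 100 nM. The control group received the solvent DMSO (3 libraries) and the depleted group received dTAG13, which sends the tagged protein for degradation (3 libraries), for 24 h from the primitive streak stage. The design text describes the 3 libraries of each group as technical replicates, so the errors given here measure the spread between libraries. ATAC-seq, in which a transposase cuts open chromatin, was run on 50000 sorted live cells per library, and a region open in fewer cells cannot be told apart from one less open in each cell.

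A microRNA is cut from a hairpin in a longer primary transcript and then guides the silencing complex to messenger RNAs through its seed, bases 2 to 8. Many hairpins lie in introns of protein-coding genes or long noncoding RNAs, and the start of the primary transcript can lie many kilobases away. A peak "at the promoter" of a microRNA gene in these annotations is therefore a peak beside the hairpin. In embryonic stem cells and their first derivatives the clusters Mir290 to Mir295 and Mir302 to Mir367 are the abundant microRNAs, and let-7 rises later in differentiation.

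The microRNAs whose peaks carry the results are shown with the seed in capitals, as RefSeq gives them, with genes that share a seed set together. The RefSeq table held 349 of the 424 genes, which carry 766 of the 966 peaks. The first 6 belong to genes with a called peak, and let-7b, miR-302b and miR-21c to families whose peaks were not called.
mmu-miR-153-3p (chr12:117250860-117250881, strand +): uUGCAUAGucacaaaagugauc
mmu-miR-195b (chr2:56785825-56785846, strand +): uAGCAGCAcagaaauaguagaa
mmu-miR-146b-5p (chr19:46342790-46342811, strand +): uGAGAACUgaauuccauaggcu
mmu-miR-346-5p (chr14:34894624-34894646, strand +): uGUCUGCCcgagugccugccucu
mmu-miR-6368 (chr13:28710796-28710816, strand -): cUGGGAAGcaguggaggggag
mmu-miR-3070-3p (chr12:109587999-109588020, strand +): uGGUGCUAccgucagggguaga
mmu-let-7b-5p (chr15:85707325-85707346, strand +): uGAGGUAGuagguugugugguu
mmu-miR-302b-3p (chr3:127545275-127545297, strand +): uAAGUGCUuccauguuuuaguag
mmu-miR-21c (chr8:128278188-128278208, strand -): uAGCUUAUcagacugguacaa
The seed GAGAACU of miR-146b is shared by miR-146a, and of the 3 peaks of Mir146 and Mir146b 1 was called. The seed AGCAGCA of miR-195b was shared by Mir6353 and Mir6419, with 5 peaks and 1 call among the 3 genes. The seed UGGGAAG of miR-6368 was shared by Mir6404 and Mir6405, with 13 peaks and 2 calls, both at Mir6368. The let-7 seed GAGGUAG was held by 5 genes with 13 peaks, the seed AAGUGCU by Mir302b and Mir295 with 6 peaks, and AGCUUAU by Mir21a and Mir21c with 10 peaks. None of these 29 peaks was called in the authors' deposited table. Over all peaks tested 5.26% were called, and counts as small as these cannot be told apart from that share.

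The genomic windows of the called peaks show what lies in the regions themselves. Each window below holds up to 100 bases on each side of the peak midpoint, plus strand of GRCm38.p6 (the assembly of mm10), with the coordinates of the window and each OTX consensus GGATTA or its reverse complement TAATCC in capitals. The first 7 were lower in dTAG13 and were chosen to show the consensus, so each holds at least 1, while 27 of the 44 lower peaks hold none, among them Mir6394, Mir346 and Mir7017.
Mir153 (chr12:117273208-117273407): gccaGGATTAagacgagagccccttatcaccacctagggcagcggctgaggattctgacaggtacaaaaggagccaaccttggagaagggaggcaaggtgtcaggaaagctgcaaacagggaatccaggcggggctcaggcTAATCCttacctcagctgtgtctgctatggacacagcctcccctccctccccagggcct
Mir1942 (chr15:76215423-76215622): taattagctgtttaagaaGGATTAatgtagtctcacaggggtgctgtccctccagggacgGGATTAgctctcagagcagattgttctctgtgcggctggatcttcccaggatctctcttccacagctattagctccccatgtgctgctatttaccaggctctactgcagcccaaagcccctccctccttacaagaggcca
Mir6414 (chr5:41894466-41894665): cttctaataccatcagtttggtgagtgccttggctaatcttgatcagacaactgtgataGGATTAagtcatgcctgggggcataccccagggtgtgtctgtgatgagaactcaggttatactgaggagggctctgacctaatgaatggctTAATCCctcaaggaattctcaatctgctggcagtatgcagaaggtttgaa
Mir1953 (chr2:151964075-151964274): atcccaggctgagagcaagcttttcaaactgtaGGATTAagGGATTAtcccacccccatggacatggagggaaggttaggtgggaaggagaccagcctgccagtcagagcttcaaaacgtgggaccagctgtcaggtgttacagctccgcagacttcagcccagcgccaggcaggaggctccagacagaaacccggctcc
Mir6366 (chr16:18179713-18179912): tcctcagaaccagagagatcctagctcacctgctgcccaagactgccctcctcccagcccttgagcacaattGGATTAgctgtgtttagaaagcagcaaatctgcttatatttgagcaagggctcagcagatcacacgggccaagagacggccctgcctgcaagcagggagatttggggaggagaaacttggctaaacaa
Mir6366 (chr16:18179065-18179135): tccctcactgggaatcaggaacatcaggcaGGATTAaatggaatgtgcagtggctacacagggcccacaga
Mir195b (chr2:56572510-56572664): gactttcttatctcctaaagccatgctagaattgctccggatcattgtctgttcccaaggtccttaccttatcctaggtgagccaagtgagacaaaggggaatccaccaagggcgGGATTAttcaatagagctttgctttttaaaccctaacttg
The last 4 were higher in dTAG13 and hold none.
Mir6368 (chr13:28654985-28655184): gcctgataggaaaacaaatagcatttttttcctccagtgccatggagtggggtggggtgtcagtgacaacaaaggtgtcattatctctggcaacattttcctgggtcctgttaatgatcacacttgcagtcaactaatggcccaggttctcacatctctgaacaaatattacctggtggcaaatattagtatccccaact
Mir3070a (chr12:109587352-109587551): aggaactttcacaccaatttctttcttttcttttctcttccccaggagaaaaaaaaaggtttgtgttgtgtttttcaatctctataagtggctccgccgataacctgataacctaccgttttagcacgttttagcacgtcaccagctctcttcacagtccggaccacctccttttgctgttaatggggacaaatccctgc
Mir6538 (chr12:26173336-26173535): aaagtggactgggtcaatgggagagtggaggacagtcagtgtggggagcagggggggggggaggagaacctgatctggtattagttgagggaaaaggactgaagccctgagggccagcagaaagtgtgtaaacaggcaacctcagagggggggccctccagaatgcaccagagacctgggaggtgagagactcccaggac
Mir3966 (chr10:97395394-97395593): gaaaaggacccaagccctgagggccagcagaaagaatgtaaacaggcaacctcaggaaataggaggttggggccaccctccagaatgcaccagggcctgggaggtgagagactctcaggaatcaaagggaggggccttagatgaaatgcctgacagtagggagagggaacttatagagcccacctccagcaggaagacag

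Levels of these peaks were low. The mean normalized count over the 6 libraries (reads per peak after scaling for depth) had a median of 6.09 among the members, with quartiles of 3.96 and 11.4, against 7.33 over all peaks of the authors' deposited table. Under 5 normalized counts lay 38.5% of the members and 32.3% of all peaks. Median peak length was 119.5 bases against 131. Depth per library is unknown. The deposited values are a single mean and fold change for each peak, so the level in DMSO and the level in dTAG13 quoted below were derived from these, and no value per library stands behind them. Promoter peaks were present for 13 of 15 definitive endoderm markers (not Foxa3 or Cldn6) with a median of 37.0 normalized counts, for 2 of 4 pluripotency, 4 of 6 mesoderm, 4 of 4 neural and 2 of 3 blood markers, whose medians were 18, 10.3, 18.8 and 4.32.

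Of the 947 members tested, 61 were called at an adjusted p under 0.05 in the authors' deposited table, or 6.44%, against a background of 5.26% of 69128 peaks. Lower in dTAG13 were 44 (4.65%, background 3.79%) and higher were 17 (1.80%, background 1.47%). These shares are near the background. The calls fell on 51 genes: 36 had only lower peaks, 11 only higher peaks and 4 both. A further 162 members had an unadjusted p under 0.05 without being called. The median log2 fold change (dTAG13 over DMSO) was -0.32 with quartiles of -1.21 and 0.39, and the median of all peaks was -0.18. Where the zero is set decides the balance. With the median of all peaks at 0 there were 35 lower and 27 higher calls. With the median of the peaks in both groups' peak lists at 0 there were 56 lower and 15 higher. With the peaks split into deciles by GC content and the median of each set to 0 the balance turned to 25 lower and 36 higher.

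**Figure D1:**
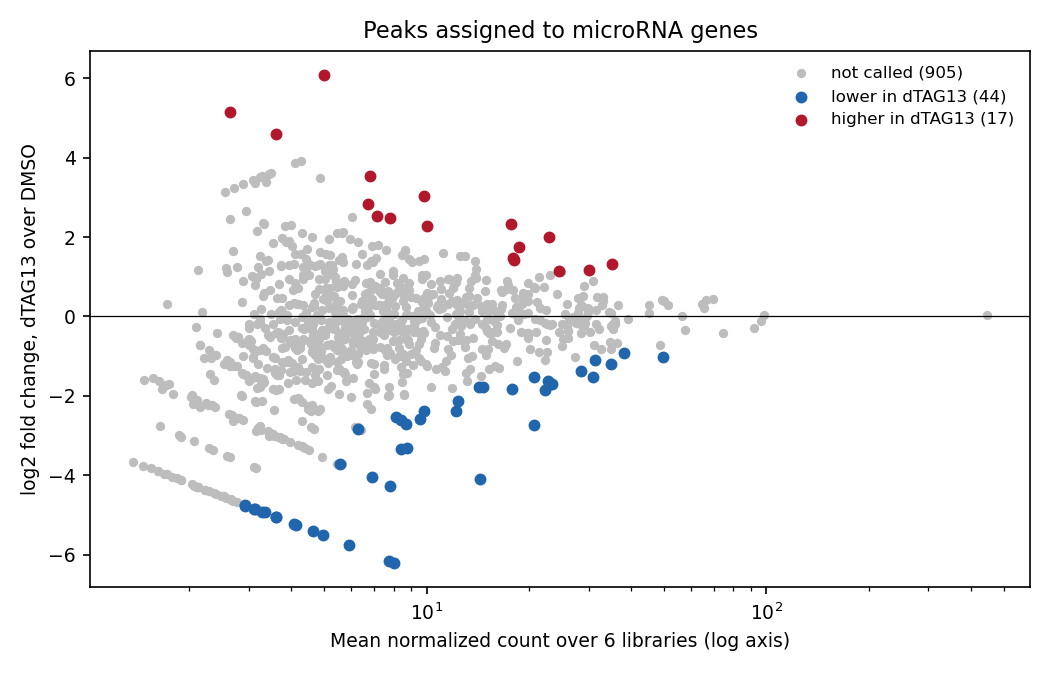
Each point is 1 of the 966 peaks, with its mean normalized count on a log axis and its log2 fold change of dTAG13 over DMSO; blue points were called lower, red points higher and grey points were not called. The widest changes lie at the left, among weak peaks, and the called peaks range from 2.63 to 49.7 normalized counts.

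Strong members were called more often than weak ones. Of the 109 members with at least 20 normalized counts 16 were called (14.7%), against 5.25% of all peaks as strong, while of those under 5 the share was 4.25% against 4.01%. Location moves with this difference. Farther than 1 kb from a start site in the authors' annotation, 13 of 78 strong members (16.7%) and 12.2% of all strong peaks were called. Within 1 kb of a start site these were 3 of 31 (9.68%) and 2.29%. Among the members such a start site is mostly that of a hairpin, so 9.68% and 2.29% cover unlike regions. Median SE of the log2 fold change was 0.34 for the strong members and 1.15 for those under 5, so a weak peak needed a much larger change to be called. The part of location in the difference was not tested.

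The members sat away from the start sites that hold most strong peaks. The authors' annotation placed 13.4% of them within 1 kb of a start site, against 30.7% of all peaks in the deposited table. Introns held 35.7% of members against 26.1%, and intergenic sequence held 35.7% against 31.2%. Call shares within a location were 4.69% of promoter members against 2.15% of all promoter peaks, 7.44% against 7.34% in introns and 7.40% against 6.78% between genes. The promoter shares compare unlike regions, since 114 of the 129 promoter members lie within 1 kb of a hairpin. Their median GC was 57.5% and their median count 9.56, against 64% and 15.8 for all promoter peaks.

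**Figure D2:**
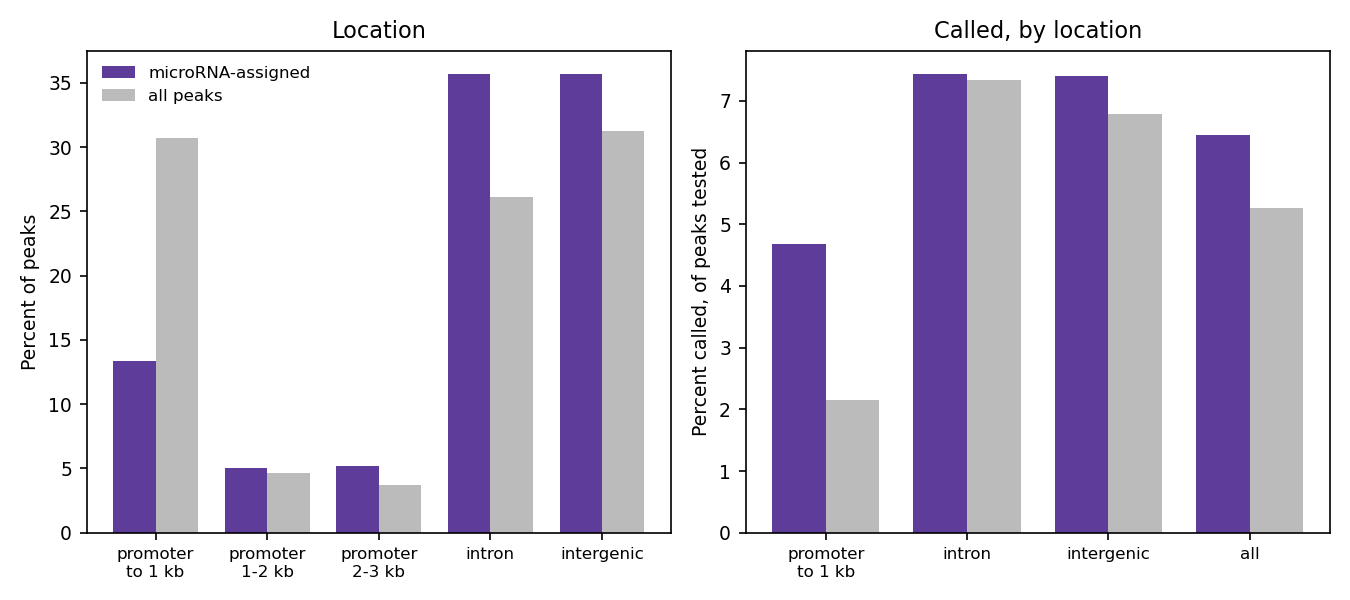
Left, percent of peaks at each location for the 966 microRNA-assigned peaks (purple) and all 70494 peaks (grey); right, percent of tested peaks called in either direction at each location. Promoter peaks make up 13.4% of members and 30.7% of all peaks, and intron and intergenic call shares lie side by side.

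Distance to the hairpin could be measured for 938 members, from the peak midpoint. Its median was 12492 bases, with quartiles of 3404 and 38977 bases, and the farthest member lay 478528 bases away. Within 1 kb of the hairpin lay 115 members (12.3%), within 5 kb 288 (30.7%) and beyond 100 kb 98 (10.4%). Called members had a median distance of 22671 bases and the others 11875. A gene body held 592 members, and for 514 of them it was the body that also holds the hairpin. For 15 of the 61 called members the start of a protein-coding gene lay nearer than the hairpin, so the microRNA name on such a peak is a label of position.

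The lower peaks were mostly sites of the DMSO peak list. Of the 44, 37 lay in the DMSO peak list alone (84.1%) and 7 in both groups' lists, close to the 86.9% in the DMSO list alone among all called lower peaks. Their median log2 fold change was -2.79 (-6.21 to -0.92) in the authors' deposited table. In 26 of them the derived dTAG13 level was under 3 normalized counts, where a fitted fold is poorly fixed. Such levels are set to a floor of 3 normalized counts per library where a fold is given, and with that floor the median was -1.74. Introns held 17 and intergenic sequence 19.

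The smallest p belonged to a peak in an intron of Ptprn2, the gene that hosts Mir153, a microRNA of neurons and endocrine cells. It spans chr12:117273132-117273483 and lies 22422 bases downstream of the hairpin. In the authors' deposited table its level was 36.1 in DMSO and 5.40 in dTAG13, so the log2 change was -2.74 (SE 0.53, adjusted p 0.00012). Both OTX sequences printed in its window lie on either side of the midpoint. The other Mir153 peak, 292 bases from the hairpin, was weak and not called, at 1.63 and 3.89 normalized counts.

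At Mir1942 the peak overlaps part of the hairpin, inside Plec, which encodes the cytoskeletal linker plectin (chr15:76215410-76215635). Its level was 27.1 in DMSO and 1.58 in dTAG13 in the authors' deposited table, and the log2 change was -4.10 (SE 0.83, adjusted p 0.000297). Against the floor this was a 9.03-fold difference. Of the 14 peaks assigned to Plec by name 0 were called. Another hairpin of chromosome 15, Mir3079 in Spatc1, was overlapped by a peak (chr15:76290745-76290978). That peak fell from 15.3 to 1.51 normalized counts, -3.34 (SE 0.90, adjusted p 0.0117), or 5.10-fold against the floor. The third hairpin overlapped by a called peak was Mir7687 in Gse1 (chr8:120538361-120538819). This strong peak was found in both lists, at 66.7 in DMSO and 32.7 in dTAG13, -1.03 (SE 0.26, adjusted p 0.00616).

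The widest fitted changes came from peaks that were near 0 in dTAG13. Mir122, the abundant microRNA of liver, lent its name to a peak in an intron of the ubiquitin ligase gene Nedd4l, 64055 bases upstream of the hairpin (chr18:65184659-65184954). That peak had 15.9 normalized counts in DMSO and 0.21 in dTAG13 in the authors' deposited table, -6.21 (SE 1.31, adjusted p 0.000568), or 5.29-fold against the floor. At 3661 bases the start of Nedd4l was far nearer than the hairpin. Mir6394 named a peak in an intron of the teneurin gene Tenm4 (chr7:96278633-96278908) with 15.3 and 0.21 normalized counts, -6.17 (SE 1.30, adjusted p 0.000558), or 5.11-fold against the floor. Mir7017 named one in Wasf2, a regulator of actin branching (chr4:133197533-133197701), with 11.6 and 0.21, -5.77 (SE 1.34, adjusted p 0.00235), or 3.87-fold. An intergenic peak 213225 bases from Mir195b (chr2:56572510-56572664) had 9.69 and 0.21, -5.51 (SE 1.41, adjusted p 0.0068), or 3.23-fold.

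Other lower peaks were strong enough to be measured in both groups. The peak 2239 bases upstream of Mir346, in the glutamate receptor gene Grid1 (chr14:34892220-34892521), had 45.7 normalized counts in DMSO and 16.0 in dTAG13 in the authors' deposited table, -1.52 (SE 0.34, adjusted p 0.00182). Intergenic peaks 3142 bases from Mir6414 (chr5:41894380-41894752) and 3355 bases from Mir1953 (chr2:151964001-151964348) fell by similar amounts, -1.86 (SE 0.42) and -1.69 (SE 0.41). Both had about 35 normalized counts in DMSO, and each window holds a pair of OTX sequences. Peaks at Mir1941, Mir7671 and Mir3099 were lower by -1.62, -1.83 and -1.38, with DMSO levels of 34.3, 27.9 and 41.1. With the median of each GC decile at 0, Mir6414, Mir7671 and Mir3099 were no longer called, at -1.23, -1.43 and -0.76 with adjusted p of 0.0605, 0.0563 and 0.214.

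Of the further lower peaks described here, those of Mir191, Mir28a, Mir190a and Mir138-2 were picked after their values were seen. The one closest to its hairpin without overlapping it lies 143 bases upstream of Mir191 (chr9:108568099-108568255) and holds a pair of OTX sequences. It had 16.4 normalized counts in DMSO and 2.74 in dTAG13 in the authors' deposited table, -2.58 (SE 0.74, adjusted p 0.0185). Peaks at Mir28a in Lpp, Mir190a and Mir138-2 in Nup93 had DMSO levels of 7.01, 6.04 and 5.62 and were 2.34-fold, 2.01-fold and 1.87-fold lower against the floor. The peaks at Mir1950 and at Mir8106 in Ano10 had 9.05 and 14.9 normalized counts in DMSO and were 3.02-fold and 4.96-fold lower. At Mir5127 both called peaks, 2874 bases apart, were lower, with 15.9 and 13 normalized counts in DMSO and 1.59 and 0.78 in dTAG13.

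**Figure D3:**
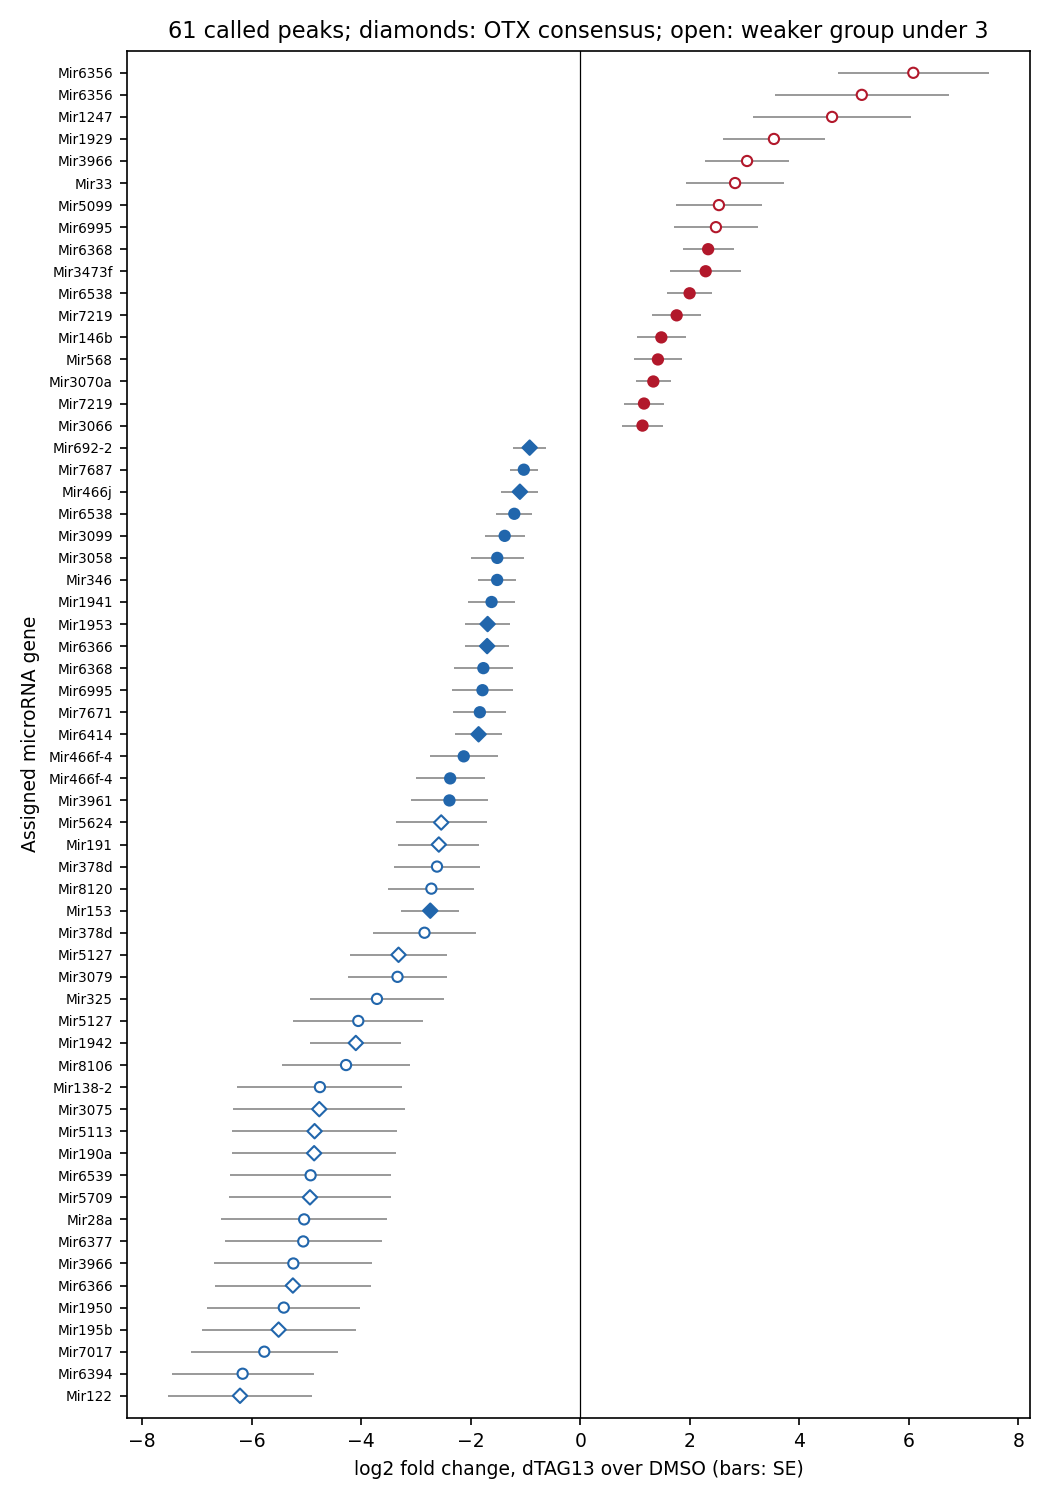
The 61 called peaks ordered by log2 fold change (dTAG13 over DMSO), with the authors' SE as bars; diamonds hold an OTX consensus, circles do not, and open symbols have a derived level under 3 normalized counts in the weaker group. All 17 diamonds lie on the lower side, and the open symbols hold the widest changes and the longest bars.

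Of the 17 higher peaks 11 lay in the dTAG13 list alone (64.7%) and 6 in both lists, where all called higher peaks had 57.5% in the dTAG13 list alone. Their median log2 fold change was 2.34 (1.14 to 6.08) in the authors' deposited table, and 1.76 with levels under 3 normalized counts set to 3, which applied to 8 of them. The smallest p was at Mir6368, in an intron of the long noncoding RNA gene 2610307P16Rik (chr13:28654887-28655283), where the level was 5.85 in DMSO and 29.5 in dTAG13, 2.34 (SE 0.46, adjusted p 0.000205). An intergenic peak named for Mir6538 (chr12:26173282-26173590), 241466 bases from that hairpin, rose from 9.16 to 36.5, 2.00 (SE 0.40, adjusted p 0.000283). The peak 492 bases upstream of Mir3070a (chr12:109587228-109587676) rose from 19.9 to 50.2, 1.33 (SE 0.32, adjusted p 0.00298). That hairpin belongs to the imprinted region of chromosome 12 that also holds Rtl1 and Mir432. The Mir432 peak, 64 bases from its hairpin, had 2.65 and 3.99 normalized counts and was not called.

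A further 5 higher peaks were among the 30 calls with the smallest p. In an intergenic region 14114 bases from Mir6356 (chr18:68753531-68753701) the level was 0.14 in DMSO and 9.82 in dTAG13 in the authors' deposited table, 3.27-fold against the floor. Peaks at Mir3966, Mir1929 and Mir3473f had log2 fold changes of 3.05 (SE 0.76), 3.54 (SE 0.94) and 2.29 (SE 0.65). The Mir3473f peak lies in Bcl2, which encodes an inhibitor of cell death, and the Mir1929 peak in Atg5, an autophagy gene. In Ldlrad4 a peak named for Mir7219 rose from 8.52 to 28.9 normalized counts, 1.76 (SE 0.45, adjusted p 0.00641). A peak in the 3' end of Srebf2, the sterol regulator gene that hosts Mir33, was chosen after its values were seen, and it had 1.66 and 11.8 normalized counts (3.94-fold against the floor, adjusted p 0.0367).

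OTX2 binds the core GGATTA, so the windows were searched for it on both strands, and for the same letters reversed (ATTAGG) as a control that can overlap it. The OTX consensus was present in 103 members (10.7%), against 8.81% of all peaks with windows of the same length, and the control in 8.07% against 7.06%. Among lower peaks 17 of 44 held the OTX consensus (38.6%), against 86 of the 905 not called (9.50%) and 0 of the 17 higher peaks. Over the whole table the consensus was in 34.1% of the 2622 called lower peaks and in 1.28% of the 1016 called higher peaks, so the members' shares are near those of all called peaks. The control occurs in 22 of the 103 members with the OTX consensus. It was in 6 of 44 lower peaks (13.6%) and in none of the higher ones. Read the other way, the 103 members with the OTX consensus had a median log2 fold change of -1.36, and 17 of the 97 tested (17.5%) were called in the authors' deposited table, all lower. Of all peaks with the consensus 15.3% were called, 894 lower and 13 higher, with a median of -1.32. The members without it had a median of -0.22, and 3.18% were lower and 2.00% higher, against 2.73% and 1.59% of all peaks without it.

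Consensus sequences of other factors were counted in the same way. FOX (TGTTTAC) was in 6.82% of lower, 11.8% of higher and 5.19% of members not called. The 2 higher peaks with it are those of Mir6538 and Mir3966, whose windows share a repeat run of 23 bases described below. In both windows the FOX letters stand beside that run, so the 2 may be copies of 1 sequence. The consensus AGATAA of the GATA factors was in 15.9%, 17.6% and 16.7% of them. Over all called lower peaks of the table that share was 30.1%. SOX (ACAAAG) was in 27.3%, 5.88% and 20.1%. TEAD (GGAATG) was in 9.09%, 11.8% and 12%, the T-box sequence AGGTGTGA in 0, 0 and 1.99%, and AP1 (TGANTCA) in 6.82%, 5.88% and 5.97%. Over all called higher peaks of the table TEAD was in 22.7% and the T-box sequence in 4.63%, against 11.5% and 1.71% of all peaks. With 17 higher members, a share of 11.8% is 2 peaks, so an even spread cannot be told from an uneven one. A match is a match of letters, and no binding was measured here.

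**Figure D4:**
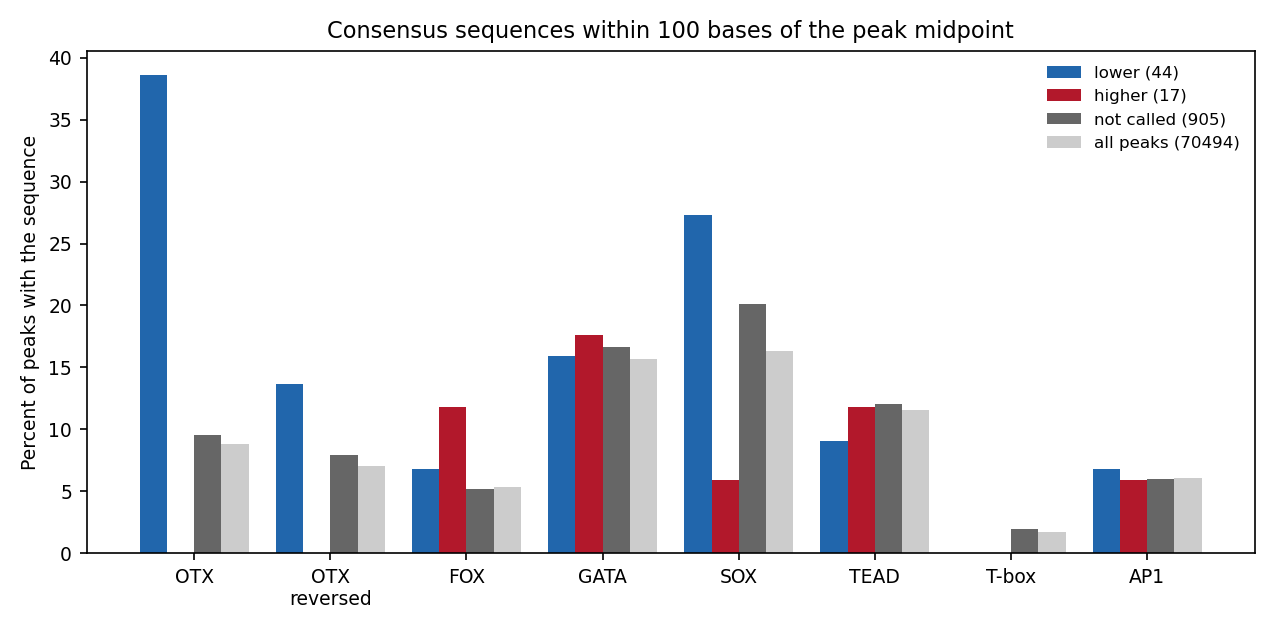
Percent of peaks whose window (100 bases on each side of the midpoint, both strands) holds each consensus, for the 44 lower, 17 higher and 905 not called members and for all 70494 peaks. The OTX bar of the lower members, 38.6%, stands above the other OTX bars of 9.50% and 8.81% and the empty bar of the higher members, while GATA and AP1 bars are level.

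A pair of called peaks was found at 10 genes. At Mir6366 both were lower, both hold an OTX consensus, and their midpoints were 713 bases apart. The stronger of them (chr16:18179632-18179994) went from 35.2 in DMSO to 10.8 in dTAG13 in the authors' deposited table, -1.70 (SE 0.41, adjusted p 0.0034), and the weaker (chr16:18179065-18179135) from 8.06 to 0.21, -5.25 (SE 1.42, adjusted p 0.0115), or 2.69-fold against the floor. The 3 other peaks of Mir6366 had log2 fold changes of 0.03 to 0.80 and were not called, the strongest at 34.9 normalized counts. Mir466f-4, one of the genes with the most member peaks (13), had lower peaks 141702 and 223334 bases downstream of the hairpin, -2.13 (SE 0.62) and -2.38 (SE 0.63), and 10 of its 13 peaks had negative fold changes. Mir6239, also with 13 peaks, had none called and fold changes between -2.07 and 1.16.

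Both directions occurred at Mir3966, Mir6368, Mir6538 and Mir6995. At Mir6368 all 8 peaks lie in 2610307P16Rik. The nearest protein-coding start to the called ones is that of Sox4, 298629 and 272843 bases away. The higher peak described above and a lower one (chr13:28680766-28680976, 22.7 to 6.64 normalized counts, -1.77, SE 0.54, adjusted p 0.0311) were 25786 bases apart. A peak next to the lower one in the authors' deposited table had 37.9 and 33.0 normalized counts and was not called. At Mir6538 the higher peak had a lower one 97468 bases away (chr12:26075684-26076252), strong in both groups at 48.6 and 21.1, -1.21 (SE 0.33, adjusted p 0.0127). With the median of each GC decile at 0 that call was lost, at -0.58 and an adjusted p of 0.315. At Mir3966 the lower peak was 140781 bases from the higher one and went from 7.94 to 0.21 normalized counts, -5.24 (SE 1.44), or 2.65-fold against the floor. At Mir6995 both lay in Sh3pxd2a, 36911 bases apart, at 2.48 (SE 0.77) and -1.79 (SE 0.56). Mir7219 had 11 peaks and a pair of higher calls, both in Ldlrad4, and 0 lower ones.

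**Figure D5:**
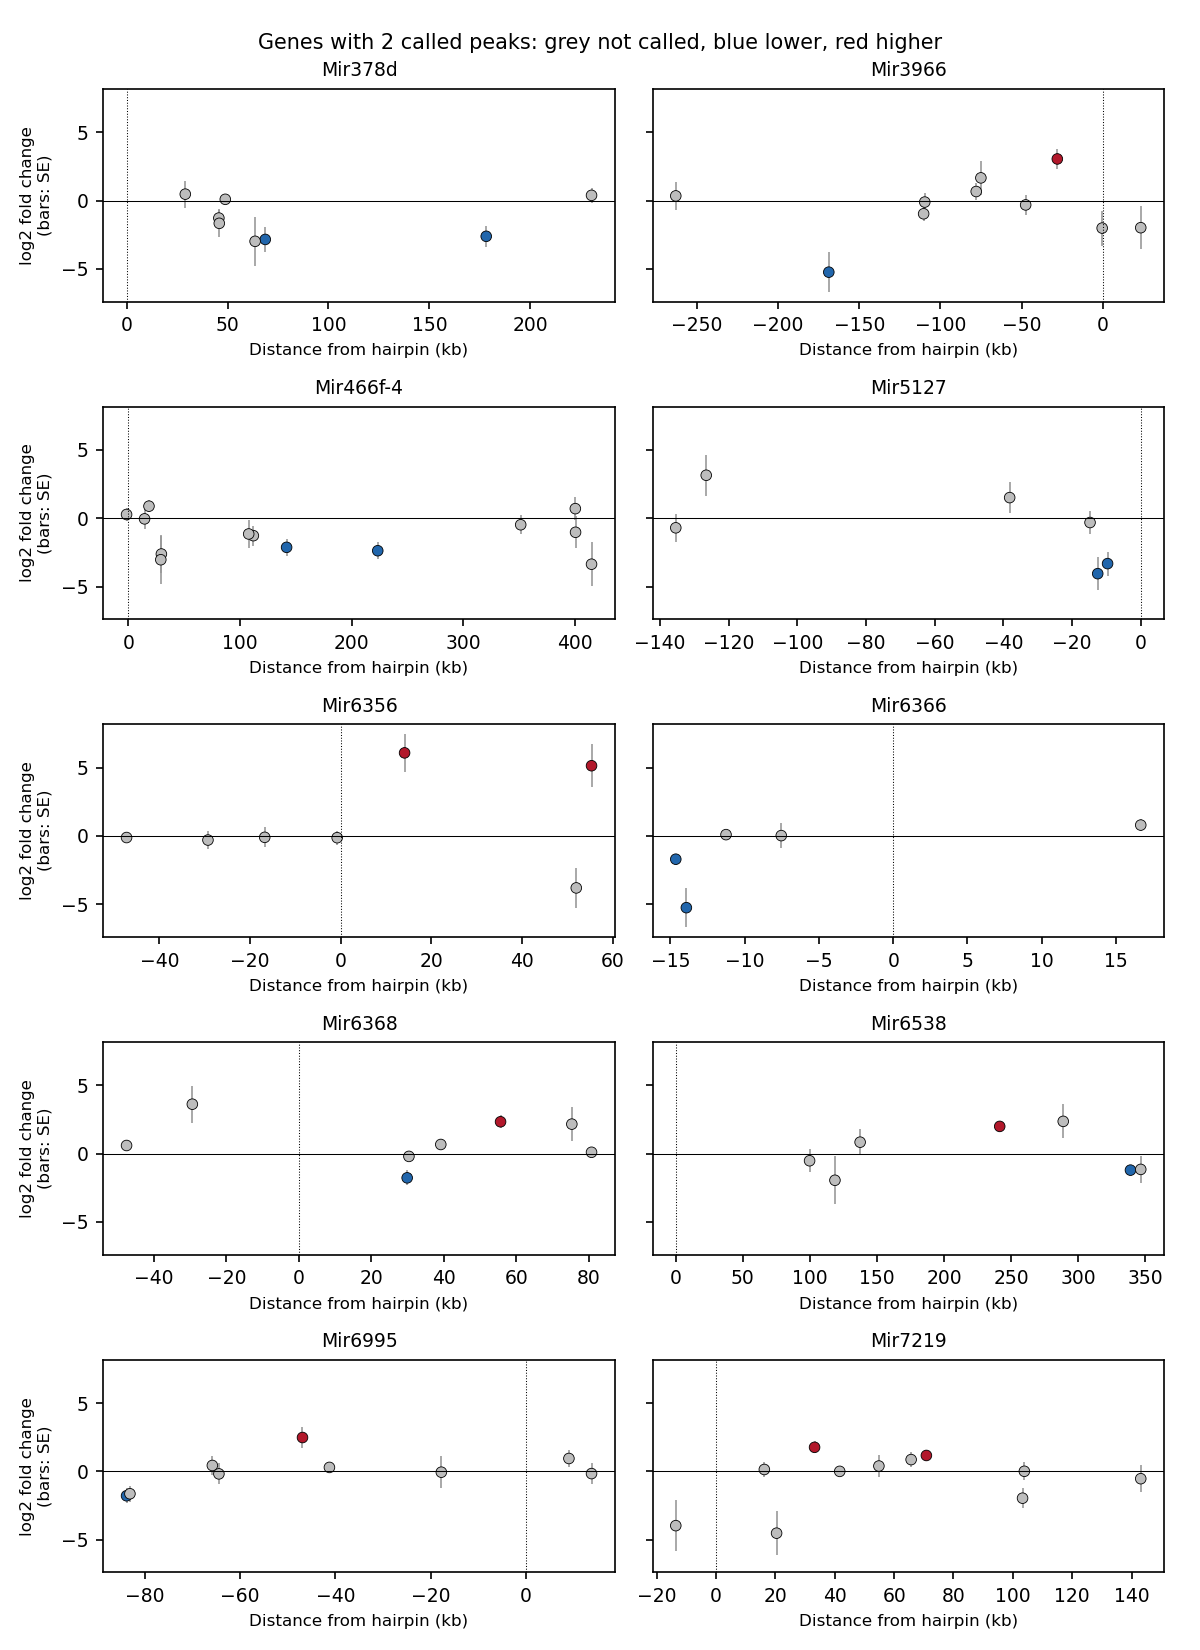
The peaks of the 10 genes with a pair of calls, by distance from the hairpin in kb (negative is upstream on the hairpin's strand) and log2 fold change of dTAG13 over DMSO, with the authors' SE as bars. Called peaks (blue lower, red higher) stand among grey peaks that were not called, some of them weak peaks with wide bars and fold changes as far from 0, and at Mir3966, Mir6368, Mir6538 and Mir6995 both colours appear.

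The lists of microRNA families with known roles held 103 peaks, and 4 of the 102 tested were called (3.92%), near the background of 5.26%, so the calls of single lists are given as values only. The pluripotency clusters had 5 peaks each, at Mir290a and Mir295 and at Mir302b, and none was called in the authors' deposited table. The Mir290a peak with the smallest p had 36.5 normalized counts in DMSO and 18 in dTAG13, -1.02 (SE 0.36, adjusted p 0.0723). The peak 867 bases from the Mir290a hairpin had 19.3 and 20.5. Beside Mir302b, which lies in Larp7, the peak 281 bases from the hairpin had 31.0 and 27.5, and the one with the smallest p had 3.26 and 9.65, 1.56 (SE 0.76), and it passed the threshold with the median of each GC decile at 0 (2.32, adjusted p 0.0458). At Mir17hg, the host of the proliferation cluster Mir17 to Mir92, the strongest of 3 peaks had 59.2 and 80.5 normalized counts, 0.44 (SE 0.23, adjusted p 0.278).

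The let-7 family and the partner microRNAs that share its transcripts had 16 peaks, 0 called, with a median log2 fold change of 0.30. The smallest p was 5701 bases from Mirlet7b, at 21.4 normalized counts in DMSO and 7.55 in dTAG13 in the authors' deposited table, -1.5 (SE 0.53, adjusted p 0.0713). At Mir99b, 5 peaks in a row upstream of the hairpin had fold changes of 0.21 to 1.05, all positive and none called.

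MicroRNAs of endoderm, liver and gut had 17 peaks and 1 call, the Mir122 peak in Nedd4l, with a median of -0.70. Mir148a, abundant in liver, had 8 peaks. The strongest had 56.2 and 57.1 normalized counts, 0.02 (SE 0.26), and the one 1096 bases from the hairpin had 31.3 and 26.7 in the authors' deposited table. Mir192, a microRNA of gut and liver, had 1 peak at 13.3 and 20.2, not called. The peak 294 bases from Mir148b, in Copz1, holds an OTX consensus and had 13.7 and 3.46, -1.99 (SE 0.73, adjusted p 0.0862).

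The neural list had 20 peaks and 1 call, at Mir153. At Mir128-2 a peak overlapping the hairpin had 28.6 normalized counts in DMSO and 37.5 in dTAG13 in the authors' deposited table. At Mir9-3 the peak 374 bases away had 25 and 21.8. The list of p53 and cell cycle microRNAs had 2 peaks and 1 call, the lower Mir195b peak. The blood list had 9 peaks and 1 call, higher, 2341 bases from Mir146b, a microRNA induced by inflammatory signals (chr19:46345065-46345358). Its level was 9.49 in DMSO and 26.5 in dTAG13, 1.48 (SE 0.45, adjusted p 0.0276). The peaks of Mir146 and of Mir144, a microRNA of red cells, had fold changes of -2.86 (SE 0.95) and -3.73 (SE 1.25) and stood just beyond the threshold, at adjusted p of 0.051 and 0.0519, as did Mir5623 at 0.0504 and 3.91 (SE 1.30). The lists of growth microRNAs (18 peaks), muscle (3), epithelium (2, both at Mir205), HOX clusters (1, at Mir615) and the imprinted cluster (1, at Mir432) had 0 calls. The imprinted list did not name Mir3070a, whose called higher peak lies in the same region and is counted outside the lists. Among these lists with 0 calls the smallest p belonged to a weak peak named for Mir21c, 299443 bases from the hairpin (5.66 and 0.21 normalized counts, adjusted p 0.052). The peak 455 bases from Mir615 in Hoxc5 had 0.52 and 6.35 (adjusted p 0.0935). At Mir205, a microRNA of epithelia, the peak 314 bases from the hairpin had 7.49 and 1.48 (adjusted p 0.197). No peak was assigned to the cluster of Mir96, Mir182 and Mir183. MicroRNA genes outside these lists held 863 peaks, with 41 lower and 16 higher calls and a median of -0.35.

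Peaks that overlap a hairpin by at least 1 base, written here as over a hairpin, numbered 29. The overlap can be partial. In both lists lay 18 of the 29, and in a gene body 21. Of them 14 had negative and 15 positive fold changes in the authors' deposited table, and the 3 calls were those of Mir1942, Mir3079 and Mir7687. That is 10.3% of 29, against 5.26% of all peaks tested and 2.15% of all promoter peaks. With 3 calls the difference cannot be judged. The strongest of all members was the peak over Mir6236, with 441 normalized counts in DMSO and 452 in dTAG13, 0.03 (SE 0.11). The window around its midpoint is 40% soft-masked as repeats. How reads that map to several places were counted is not given, so this level may not be that of the hairpin locus alone. The Mir6236 peak was not called, but with the median of each GC decile at 0 its adjusted p was 0.00327. A peak over Mir713 in the noncoding gene Platr25 had 15.8 and 34.1, 1.11 (SE 0.37, adjusted p 0.0524, and 0.0136 on that scale), and one over Mir6917 in the receptor gene Erbb3 had 25.2 and 11.7, -1.11 (SE 0.44). Over Mir5130 the level was 56.9 and 76.3, over Mir132, a microRNA of active neurons, 23 and 28.7, and over Mir688, Mir7666 and Mir7071 the fold changes lay between -0.09 and 0.09. The peak over Mir449c in Cdc20b, a microRNA of ciliated cells, had 16.6 and 27.6, 0.74 (SE 0.42). Next in level after Mir6236 came Mir22hg at 98.5 normalized counts, Mir6356 at 96.3, Mir210, a microRNA induced by low oxygen, at 92.3 and Mir7240 at 74.6, and none of the 4 was called.

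Marks for genes that went down or up, which the authors' deposited table sets beside some gene names, were on 0 of the 966 members, against 2.86% and 3.01% of all peaks. The marks were read instead at the nearest protein-coding start of each called member. A down mark stood at 3 of the 44 lower members, those nearest to Tenm4, Nedd4l and Usp29, and an up mark at 2 (Dock5 and Ptprm). Of the 17 higher members 1 had a down mark (Bcl2) and 2 an up mark. By the gene name of the peak itself, 7.32% of all called lower peaks had a down mark and 2.17% an up mark. For all called higher peaks these shares were 1.48% and 4.63%. Of the 39 gene bodies around called members 4 had a down mark and 3 an up mark, 2610307P16Rik among the latter. A gene with no peak under its own name could carry no mark and was counted as unmarked. Spatc1 and Mfsd13a, with 0 such peaks each, are examples among the gene bodies. The share of marked genes over all genes was not computed, so these counts of genes have no background. The header of those columns does not give how the marks were made.

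The higher windows of Mir6538 and Mir3966 share a run of bases. Among the windows of the 61 called members they were the single pair from different places with a common run of at least 20 bases, the 23 bases shown here.
shared run: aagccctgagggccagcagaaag
This run occurs at 797 places in the chromosomes of GRCm38.p6, counting both strands, and 81.0% of the Mir6538 window and 95.5% of the Mir3966 window are soft-masked there as repeats. Among the windows of all peaks it was found in 17, including another member, a peak of Mir3961 (chr13:82758218-82758359). All 17 had a positive log2 fold change in the authors' deposited table, from 1.02 to 4.2 with a median of 2.21, and 10 were called higher and 0 lower. The called higher peaks of Mir6538 and Mir3966, which gave the run, count among the 17 and the 10. Over all peaks tested 1.47% were called higher. The FOX consensus was in 14 of the 17 windows and the OTX consensus in 1, where 5.33% and 8.81% of all peaks held them. In the windows of Mir6538 and Mir3966 the FOX letters stand a few bases beyond the run. The 14 may therefore be copies of 1 repeat sequence, and they do not count as separate matches. The pair was noticed after its values were seen, and the sources used here do not say how reads that map to several places were counted.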

How the data were processed

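ATAC-seq of 3 DMSO and 3 dTAG13 libraries was taken from 1 table in which the authors deposited, per peak, a mean normalized count (a signal), a log2 fold change with its SE, a score (fold change over SE), a p-value and an adjusted p. Per the submitters' processing notes, fastp, Bowtie2, MACS2, featureCounts, HOMER 4.11, ChIPseeker and the build mm10 were used. The role of each tool, and how reads that map to several places were treated, are not given in the sources used here. The authors' deposited peak lists of each group gave each peak's list, with an overlap of at least 1 base.

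No test could be run on libraries, so the authors' calls (adjusted p under 0.05) were counted. Group levels were derived from the mean and the fold change. The members and lists were chosen with earlier results of these data known. Named peaks were the 30 calls with the smallest p, the smallest p of each list, the 5 strongest members, up to 15 strongest over a hairpin, the 3 genes with most peaks and the 3 smallest p not called. Other peaks named were chosen after their values were seen. Sequences came from GRCm38.p6, whose chromosome lengths fit every peak, mature microRNAs from RefSeq and start sites from GENCODE M21. Consensus search, distances and overlaps were computed with python 3.11.15, pandas 2.3.3, numpy 2.4.6 and pysam 0.24.0 and tested on simulated data. Alternatives were other thresholds, filters, zero points of the fold change, windows, overlaps and membership rules. Depth per library is unknown.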

Additional observations from a re-analysis of the deposited data

How the results depend on the processing

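No paired analysis was possible because each peak has a single mean and no value per library. For the same reason no library could be left out. Of the 61 calls 24 passed an adjusted p under 0.01 (17 lower, 7 higher), and 109 members passed one under 0.1 (79 lower, 30 higher). With the median of all peaks at 0 there were 35 lower and 27 higher calls, and with the median of peaks in both lists at 0 56 and 15. With the median of each GC decile at 0 there were 25 lower and 36 higher. Taking members by the nearest start site of the reference annotation gave 1497 members and 69 lower calls. The median of all peaks was -0.18 as deposited. With an overlap of 50% of both peaks, 33.1% of members lay in both lists and 51.7% in the DMSO list alone. Windows of 50 bases on each side held the OTX consensus in 5.69% of members. Within 5 kb of the hairpin lay 30.7%, and within 2 kb of any start site 23.1%, against 16.7% within 1 kb. The 60 named peaks hold the 30 calls with the smallest p and many peaks that were not called. Of the 60, 4 lost their call with the GC deciles at 0 and 4 gained one, and 0 of the called ones changed direction under the alternatives run. Over all members the lower calls went from 44 as deposited to 25 with the GC deciles at 0. Weak peaks limit the whole: a member under 5 normalized counts had a median SE of 1.15 on the log2 scale.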

Other observations

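The run of 23 bases shared by the higher peaks of Mir6538 and Mir3966 was also in windows of 14 peaks assigned to other genes. In the authors' deposited table the strongest calls among them were in an intron of Gna14, with 2.39 normalized counts in DMSO and 19.2 in dTAG13 (log2 fold change 3.01, SE 0.66, adjusted p 0.00127), beside Rgs13 with 3.31 and 21.3 (2.69, SE 0.64, adjusted p 0.00331), and in an intron of Slc4a7 with 5.08 and 22.5 (2.15, SE 0.54, adjusted p 0.00578). The smallest change of the 17 was 1.02, beside Gm1840, and it was not called. These peaks had 3.25 to 22.9 normalized counts. The median soft-masked share of the 17 windows was 92.5%. Near-identical copies can share reads, so the 17 values may not be independent of each other.

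GC content moved with the fold change over the whole table. Over all peaks of the authors' deposited table the median log2 change was -0.75 in the decile with the lowest GC (27 to 44%) and 0.04 in the decile with the highest (69.5 to 93%). The members had -0.67 in the lowest and 0.17 in the highest decile without a steady rise between them: their medians in the third to the seventh decile were -0.25, -0.40, -0.53, -0.42 and -0.34, against -0.41, -0.31, -0.25, -0.21 and -0.11 for all peaks. The members held 3.42% of their number in the highest decile and 10.6% in the lowest. Its part in the balance of lower and higher calls was not tested.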
